A study of Mus musculus with 3 samples.

Results

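The actin cytoskeleton gives the megakaryocyte (MK), the bone marrow and fetal liver cell that makes platelets, its cortex, its attachments to matrix and its contractile force. It also takes part in the formation of proplatelets. Nonmuscle myosin II pulls on actin filaments, tropomyosins coat the filaments, filamin and α-actinin cross-link them, and talin and vinculin tie them to integrins at the membrane. Occupancy of the transcription factors (TFs) FLI1 and RUNX1 is described here at 10 genes of this machinery, Myh9, Myh10, Myl9, Flna, Actn1, Tln1, Vcl, Tpm1, Tpm4 and Was, chosen by name as actin cytoskeleton genes of proplatelet formation, of 22367 protein-coding genes of the mouse genome build mm9. The choice was made with earlier results of these data known. FLI1 is an ETS-family activator and RUNX1 a core-binding factor, and both are needed for normal MK maturation.

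The data are 3 chromatin immunoprecipitation sequencing (ChIP-seq) libraries, FLI1, RUNX1 and input DNA, from mature MKs. The cells were wild-type, grown from livers of CD1 mouse fetuses labelled E15 and cultured for 5 days in thrombopoietin. Each antibody gave 1 library, pooled from at least 3 precipitates, so that there is no replicate, no test and no p-value, and every interval below is a 95% interval of counting error only. The FLI1 library held 62946422 reads on nuclear chromosomes and the RUNX1 library 3973856, against 21745220 distinct input positions. The supplement of the study lists far more uniquely mapped RUNX1 tags than the RUNX1 file used here holds, a gap whose cause was not tested, so that RUNX1 values describe this file and not the whole library. In it a 400-bp bin held on average 0.621 reads, against 9.84 for FLI1 and 3.4 for input. In the RUNX1 file, opposite-strand read pairs within 400 bp were set beside pairs in an equally wide window starting 2 kb away. The near pairs exceeded the distant pairs by 44.9 per 100 plus-strand reads, beside 46.2 distant pairs. The same excess was 251 beside 573 for FLI1 and 36.1 beside 200 for input. Enrichment raises such pairs too, and how far both ends of 1 fragment were counted was not tested. Where they were, the intervals are too narrow. The files hold no expression values, so the cell label was set beside occupancy alone: the MK genes Itga2b, Gp9, Gp1ba and Pf4 had FLI1 2.65-fold to 5.5-fold over expected at the start site, and 0 of 9 genes of hepatocytes, erythroid, granulocytic, B, neural and muscle cells reached 2-fold.

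Reads were counted in 2 ways. The first was a window of 2 kb on each side of the transcription start site (TSS) of the gene record, in which the fold is the ChIP reads over the higher of depth-scaled input and the genome-wide mean (98.4 FLI1, 6.21 RUNX1 and 34 input reads per window), called at 2-fold for either TF and, for RUNX1, with at least 12 reads. The second was the gene body with 20 kb on each side, its territory, cut into 400-bp bins, in which FLI1 was called at 3-fold and RUNX1 at 5-fold with at least 6 reads. Adjacent called bins were joined into 1 site, and distances run from the TSS in the direction of transcription to the point of highest read density in the site.

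At the TSS, FLI1 reached 2-fold at 6 of the 10 genes, Myh9, Tpm4, Tln1, Vcl, Actn1 and Was, beside 22% of all protein-coding genes. The median FLI1 fold of the 10 genes was 2.19 and that of all genes 1.12. RUNX1 reached its threshold at 3 of the 10, Tpm4, Myh9 and Myh10, beside 11.9% of all genes, with medians of 1.5 and 1.08. A called FLI1 bin lay within 2 kb of the TSS in 8 of 10 genes (36.4% of all genes) and anywhere in the territory in 9 of 10 (62.8%). For RUNX1 these counts were 3 of 10 (5.67%) and 6 of 10 (20.6%). Over the 10 territories together, 69 of 2303 bins were called for FLI1, 3% (exact interval 2.34 to 3.78%), beside 0.742% of the bins of all gene territories. RUNX1 was called in 10 bins, 0.434% (0.208 to 0.797%), beside 0.102%.

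**Figure D1:**
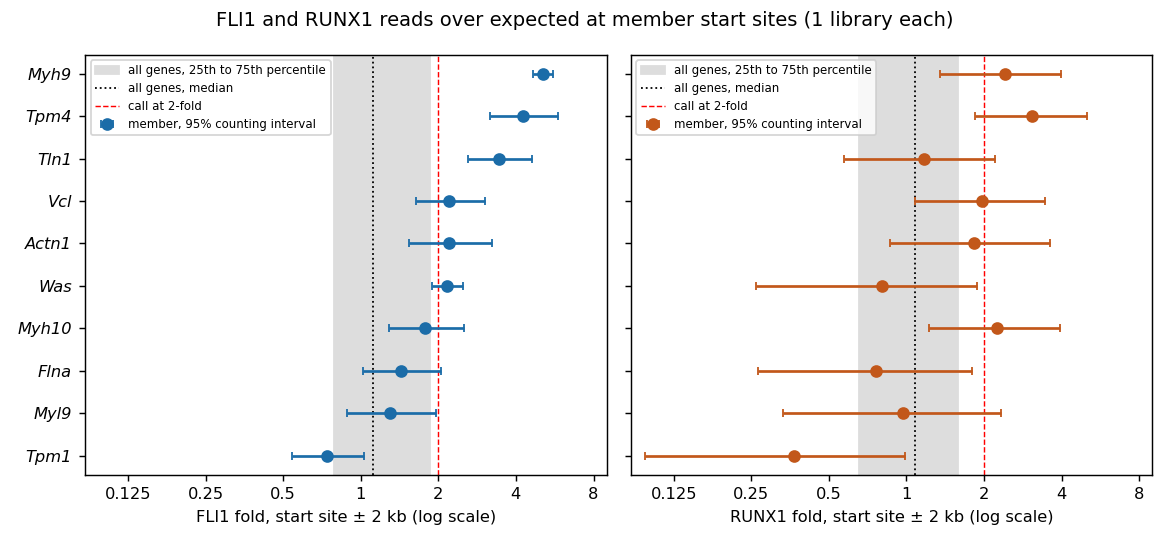
FLI1 (left) and RUNX1 (right) fold over expected within 2 kb of the TSS for the 10 genes, on a log scale, with bars for the 95% counting interval, a grey band for the middle 50% of all genes (0.788 to 1.86 for FLI1), a dotted line for their median and a dashed line at 2-fold. Myh9, Tpm4 and Tln1 lie above 3-fold for FLI1 and Tpm1 lies below 1, while every RUNX1 interval reaches below the dashed line.

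The order of FLI1 folds at the TSS ran from Myh9 (5.09) through Tpm4 (4.25), Tln1 (3.44), Vcl (2.21), Actn1 (2.2), Was (2.17), Myh10 (1.78), Flna (1.43) and Myl9 (1.3) to Tpm1 (0.743). The intervals of each pair of neighbours in this order overlapped, so that their order is not resolved even by counting error. The interval of Myh9 (4.65 to 5.56) lay above that of Tln1 (2.61 to 4.62) and those of all genes ranked below Tln1. These intervals are of unlike kinds. Those of Myh9 and Was leave out the error of input, since the genome-wide mean set their expectation, while the others include it. The place of Myh9 at the top depends on the input of Tpm4 (48 reads) and Tln1 (56 reads), which was above the genome-wide mean. Against the genome-wide mean alone the folds were 6.01 for Tpm4, 5.67 for Tln1 and, unchanged, 5.09 for Myh9. The call at 2-fold splits Vcl, Actn1 and Was from Myh10 on differences smaller than their intervals.

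Myh9 encodes the heavy chain of nonmuscle myosin IIA, the myosin of platelets, whose human counterpart is mutated in inherited macrothrombocytopenias. The gene lies at chr15:77591017-77672605 on the minus strand. Its TSS window held 501 FLI1, 15 RUNX1 and 22 input reads. The input count was below the genome-wide mean, so that the mean set the expectation, and the fold was 5.09 (4.65 to 5.56) for FLI1 and 2.41 (1.35 to 3.98) for RUNX1. The RUNX1 call was lost in a 1-kb window, where the fold was 3.54 but the reads fewer than 12, over windows at all coding start sites and with plus-strand reads alone (2.25-fold). FLI1 was lower at the TSS of 99.5% of all genes. In the territory 24 of 304 bins were called for FLI1, in 18 separate sites that held 32.7% of the FLI1 reads there. The number of called bins was 46 at a threshold of 2-fold, 12 at 5-fold and 55 without input. At the threshold used, a count of 24 or more was found at 7 protein-coding genes in all, Myh9 among them, although territories differ in length. As a share of bins, Myh9 had 7.89%, Tpm4 6.85% and Tln1 5.62%, beside a median of 0.725% over all genes. Shorter territories could hold larger shares, such as 15 of 107 bins at Pfn1, a further actin cytoskeleton gene. The territory of Pfn1 also holds the MK gene Gp1ba, whose own territory had 12 called bins, so that its bins are not of Pfn1 alone.

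The strongest site of Myh9 lay 13286 bp upstream of the TSS, in intergenic DNA, where 1 bin held 282 FLI1, 4 RUNX1 and 4 input reads, 21.2-fold over expected. The next was a run of 5 adjacent bins across the TSS, with its summit at 725 bp in the first intron, where the top bin held 130 FLI1 reads and 0 of RUNX1 or input (13.2-fold). The third lay 22010 bp into the gene, in an intron, with 228 FLI1, 3 RUNX1 and 7 input reads (11.3-fold). Of the 18 sites, 16 had their summit in an intron, and the farthest of these lay 69173 bp into the gene. RUNX1 was called in 2 bins of Myh9. The bin over the TSS held 7 RUNX1, 109 FLI1 and 1 input reads (11.3-fold for RUNX1) and was called for both TFs, and a bin at 36001 bp, next to a called FLI1 bin, held 6 RUNX1, 35 FLI1 and 5 input reads (5.23-fold).

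ETS factors read the core GGAA, and the search took CAGGAAA, its variant with G at the end (CAGGAAG), and the forms CCGGAAA as well as its own variant CCGGAAG, on either strand, with 25.8% of uncalled 400-bp bins in gene territories holding a match. The 3 stretches of Myh9 below are shown for the ETS match of the strongest site and for 2 intronic sites that hold, beside an ETS match, a CArG box (the site of serum response factor, SRF, a regulator of many cytoskeletal genes). Capitals mark ETS matches and CArG boxes. Sequences here and below are mm9, read 5′ to 3′ on the strand given.
Myh9 upstream, chr15:77685670-77685742, plus strand: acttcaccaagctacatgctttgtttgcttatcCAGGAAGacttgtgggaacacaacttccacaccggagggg
Myh9 intron, chr15:77631069-77631144, plus strand: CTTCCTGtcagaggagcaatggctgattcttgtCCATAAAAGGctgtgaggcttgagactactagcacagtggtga
Myh9 intron, chr15:77646576-77646651, plus strand: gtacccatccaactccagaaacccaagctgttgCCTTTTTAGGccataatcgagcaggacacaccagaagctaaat
The ETS match of the first stretch lies 185 bp from the summit. The second stretch lies at the site 41491 bp into the gene, under a bin of 209 FLI1 reads (9.03-fold), with the CArG box 7 bp from the summit. The third, at the site 25981 bp into the gene, lies under a bin of 185 FLI1 reads (7.99-fold) with the CArG box 10 bp from the summit and the ETS match, outside the stretch shown, 40 bp from it.

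Myh10 encodes the heavy chain of nonmuscle myosin IIB, which is known to be silenced by RUNX1 as MKs become polyploid. It lies at chr11:68505061-68630134 on the plus strand. Its TSS window held 227 FLI1, 18 RUNX1 and 44 input reads, a fold of 1.78 (1.29 to 2.52) for FLI1, which is not called, and 2.24 (1.22 to 3.95) for RUNX1, which is. FLI1 was called there in a 1-kb window (2.25) and against the genome-wide mean alone (2.31), and the RUNX1 call was lost with plus-strand reads alone, where the fold was 2.14. FLI1 and RUNX1 folds therefore do not differ beyond their intervals at this TSS. In the longest territory of the 10, 165.1 kb, 1 of 412 bins was called for FLI1 and 0 for RUNX1. That FLI1 bin lay 880 bp upstream of the TSS with 74 FLI1, 4 RUNX1 and 3 input reads (6.39-fold), and its ETS match lies 1 bp from the summit.
Myh10 upstream, chr11:68504144-68504216, plus strand: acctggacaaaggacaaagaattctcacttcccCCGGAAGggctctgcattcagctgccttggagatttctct

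Myl9 encodes a regulatory light chain of myosin II and is in MKs a known target of RUNX1 and of the SRF cofactor MKL1. It lies at chr2:156601156-156607394 on the plus strand. Its TSS window held 128 FLI1, 6 RUNX1 and 34 input reads, a fold of 1.3 (0.885 to 1.96) for FLI1 and 0.966 (0.331 to 2.33) for RUNX1. Neither TF was called there, and 0 of the 115 bins of the territory were called for either. The 6 RUNX1 reads leave room for a fold of up to 2.33 within counting error. The bin with most FLI1 reads lay 8555 bp upstream and held 90 FLI1, 2 RUNX1 and 14 input reads, 2.22-fold, since input was also high there. The stretches of Myl9 show the ETS match in that bin and a CArG box 112 bp upstream of the TSS.
Myl9 upstream, chr2:156592449-156592521, minus strand: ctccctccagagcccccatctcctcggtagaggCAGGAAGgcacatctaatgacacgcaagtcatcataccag
Myl9 promoter, chr2:156601006-156601081, plus strand: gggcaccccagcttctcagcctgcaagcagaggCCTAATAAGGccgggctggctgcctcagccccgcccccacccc

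Set side by side, Myh9 stood apart from Myh10 and Myl9 in FLI1. Over the whole territory the FLI1 to input ratio, scaled to depth, was 1.78 (1.69 to 1.88) for Myh9, 0.81 (0.769 to 0.854) for Myh10 and 0.853 (0.773 to 0.942) for Myl9. The interval of Myh9 did not reach those of the other genes, which overlapped each other. For RUNX1 the same ratios were 1.34 (1.2 to 1.5), 0.868 (0.769 to 0.977) and 0.973 (0.779 to 1.2), so that Myh9 again lay above Myh10, while at the TSS the RUNX1 intervals of all 3 genes overlapped.

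**Figure D2:**
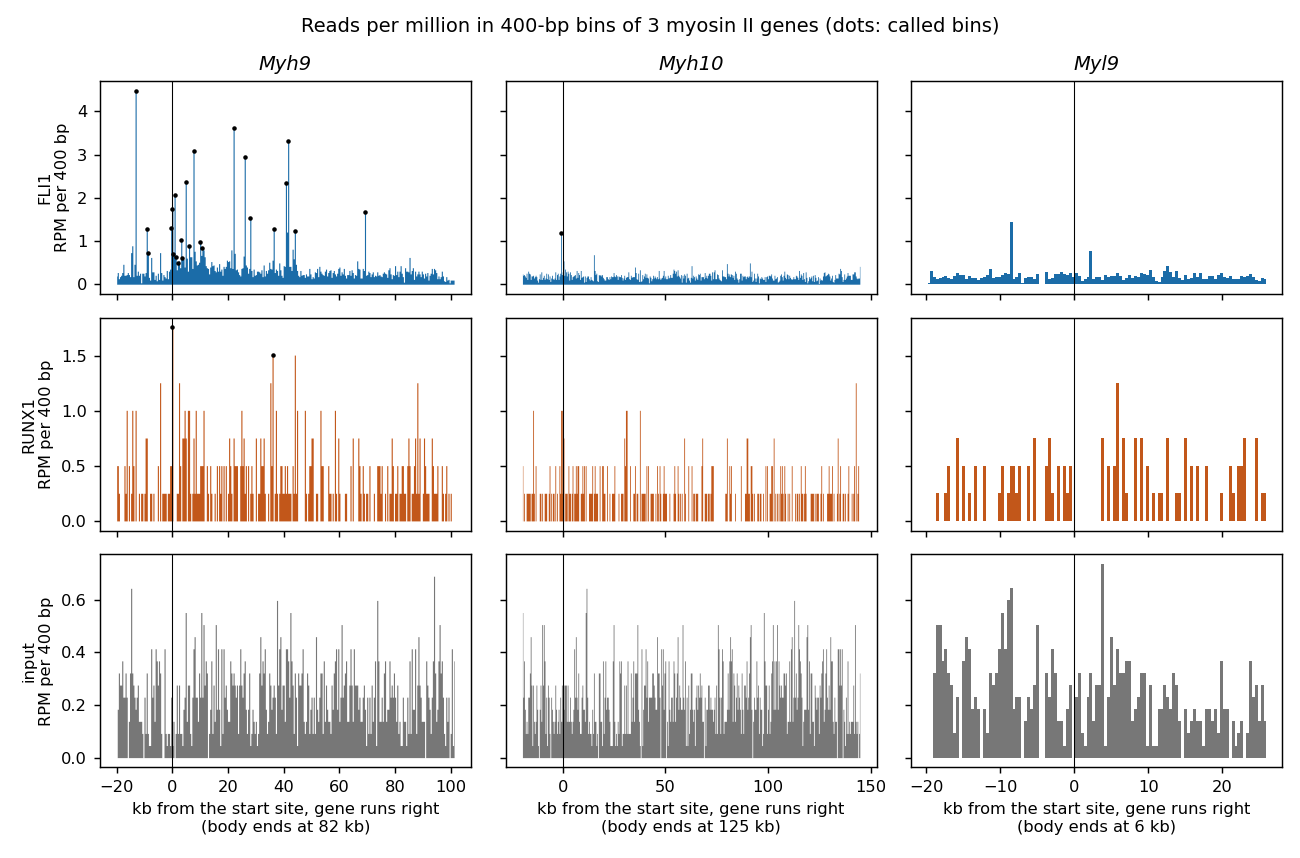
FLI1, RUNX1 and input reads, scaled to library depth (RPM), in 400-bp bins across the territories of Myh9, Myh10 and Myl9, plotted by distance from the TSS, with a vertical line at the TSS and dots on called bins. The 24 called FLI1 bins of Myh9 stand over its upstream flank and gene body, Myh10 has 1 just upstream of the TSS and Myl9 has none, and each RUNX1 column stands for few reads.

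Of the genes that cross-link filaments, Flna encodes filamin A, which also anchors the von Willebrand factor receptor GPIb to actin. It lies at chrX:71468800-71495159 on the minus strand. Around its TSS lay 178 FLI1, 6 RUNX1 and 43 input reads, a fold of 1.43 (1.02 to 2.04) for FLI1 and 0.764 for RUNX1, and neither was called. Within the territory 5 of 166 bins were called for FLI1, each of 39 to 76 reads, and 0 for RUNX1. The strongest lay in an intron at 4890 bp (76 FLI1, 2 RUNX1 and 4 input reads, 5.97-fold), the next 8069 bp upstream, inside an intron of the neighbouring gene Emd (41 FLI1, 1 RUNX1 and 3 input reads, 4.17-fold), and the third in an intron at 1089 bp (46 FLI1, 1 RUNX1 and 4 input reads, 3.97-fold). A bin 4917 bp upstream lay 50 bp from the TSS of Emd and may belong to it. Of the coding start sites annotated inside Flna, the one at 3456 bp had more FLI1 within 500 bp (85 reads, 3.26-fold) than the start of the gene record (60 reads, 1.48-fold).
Flna intron, chrX:71490115-71490190, plus strand: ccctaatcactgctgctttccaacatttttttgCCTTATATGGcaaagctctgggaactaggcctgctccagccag
Flna intron, chrX:71494106-71494181, plus strand: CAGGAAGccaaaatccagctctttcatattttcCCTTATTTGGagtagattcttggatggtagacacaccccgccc
The stretches of Flna are shown for their CArG boxes, in the strongest and the third site. The first holds no ETS match, while the second begins with one.

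Actn1 encodes α-actinin 1, another cross-linker that is mutated in a human macrothrombocytopenia. The gene lies at chr12:81268529-81361358 on the minus strand. The window at its TSS held 229 FLI1, 12 RUNX1 and 36 input reads, a fold of 2.2 (1.54 to 3.22) for FLI1, which was called, and 1.82 for RUNX1, which was not. In all 4 of 332 bins were called for FLI1 and 0 for RUNX1. The strongest of them were intronic, at 24861 bp (60 FLI1, 0 RUNX1 and 1 input reads, 4.98-fold) and 31157 bp (67, 0 and 3 reads, 4.78-fold), and the third lay 117 bp upstream of the TSS (35, 2 and 1 reads, 3.56-fold). All 4 bins were below 5-fold, so that none of them outlasts a stricter threshold of 5.

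Tln1 encodes talin 1, which activates integrins and couples them to actin. It lies at chr4:43544391-43575563 on the minus strand. Around its TSS lay 558 FLI1, 12 RUNX1 and 56 input reads, a fold of 3.44 (2.61 to 4.62) for FLI1 and 1.17 for RUNX1. FLI1 thus ranked above 95.9% of all genes, while RUNX1 was near its median over all genes. Of 178 bins, 10 were called for FLI1 and held 37.3% of the FLI1 reads of the territory. The strongest lay in an intron at 4498 bp with 261 FLI1, 2 RUNX1 and 6 input reads (15-fold), 267 bp from a second coding start site. The next crossed the 5′ UTR at 399 bp with 196 FLI1, 2 RUNX1 and 5 input reads in its top bin (12.2-fold). That site lies 40 bp from the TSS of Creb3, which lies on the opposite strand and overlaps the 5′ end of Tln1, so that it cannot be assigned to either gene. Another site, 16210 bp upstream (138 FLI1, 2 RUNX1 and 4 input reads, 10.4-fold), lies 28 bp from the TSS of Gba2 and 186 bp from that of Rgp1. The RUNX1 bin of the territory (6 RUNX1, 52 FLI1 and 4 input reads, 6.73-fold) lay in the same place, 288 bp from the TSS of Rgp1.
Tln1 5′ UTR, chr4:43575166-43575194, plus strand: agcggagactgCAGGAAGctgctctggcc
Tln1 intron, chr4:43571584-43571659, plus strand: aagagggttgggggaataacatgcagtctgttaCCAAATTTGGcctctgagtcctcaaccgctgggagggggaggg
The first stretch of Tln1 carries the ETS match 16 bp from the summit of the site at the shared promoter, and the second the CArG box of an intronic site at 3878 bp, where 145 FLI1 reads gave 6.26-fold.

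Vcl encodes vinculin, which binds talin and actin at adhesions. It lies at chr14:21748655-21852895 on the plus strand. The window at its TSS held 320 FLI1, 18 RUNX1 and 50 input reads, a fold of 2.21 (1.64 to 3.04) for FLI1, which was called, and 1.97 for RUNX1, which fell just short of 2 and passed it under other settings (3.23 in a 1-kb window). Over windows at all coding start sites FLI1 was not called. Of 360 bins, 8 were called for FLI1 and 3 for RUNX1, but with the bin grid moved by 200 bp these were 4 and 1. The strongest FLI1 site lay 102964 bp into the gene, in the 3′ UTR (88 FLI1, 2 RUNX1 and 4 input reads in its top bin, 6.55-fold), the next in an intron at 47592 bp (84, 3 and 3 reads, 5.71-fold), and the third 227 bp upstream of the TSS (73, 2 and 5 reads, 5.04-fold). A bin past the end of the gene, 122499 bp from its TSS, lies 576 bp from the TSS of Ap3m1 and 701 bp from that of Adk. RUNX1 was called 314 bp upstream of the TSS (6 RUNX1, 68 FLI1 and 6 input reads, 5.47-fold), in a bin also called for FLI1. The other 2 RUNX1 bins, in introns at 15949 bp (6 RUNX1, 28 FLI1 and 3 input reads, 9.66-fold) and 30219 bp (6, 9 and 3 reads, 6.57-fold), were not called for FLI1. The promoter stretch of Vcl is shown for its CArG box, 30 bp from the FLI1 summit.
Vcl promoter, chr14:21748360-21748435, plus strand: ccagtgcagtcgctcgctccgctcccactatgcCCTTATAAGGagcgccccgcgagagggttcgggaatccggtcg

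Tropomyosins run along the actin filament and control which myosins and severing proteins reach it. Tpm4, a major tropomyosin of platelets, lies at chr8:74658874-74677041 on the plus strand and had the highest RUNX1 fold of the 10 genes in the 2-kb window. Its TSS window held 591 FLI1, 27 RUNX1 and 48 input reads, a fold of 4.25 (3.17 to 5.83) for FLI1 and 3.08 (1.85 to 5.03) for RUNX1, both called. Of 146 bins, 10 were called for FLI1 and 2 for RUNX1. No called site of either TF had its summit within 1 kb of the TSS. The strongest site lay 1330 bp upstream of the TSS, where 1 bin held 203 FLI1, 10 RUNX1 and 1 input reads, 15-fold for FLI1 and 11.7-fold for RUNX1, the highest RUNX1 count of any bin in the 10 territories. With a window of 1 kb on each side, which leaves that site out, the folds of Tpm4 were 1.54 for FLI1 and 1.92 for RUNX1, neither of them called, and RUNX1 was higher at Myh9 (3.54), Vcl (3.23) and Myh10 (2.85). The next sites by fold lay past the end of the gene, 25816 bp from the TSS (121 FLI1, 3 RUNX1 and 2 input reads, 10.7-fold), 409 bp from the TSS of the neighbour Rab8a, and in an intron of Tpm4 at 8665 bp (112, 4 and 6 reads, 6.45-fold). The second RUNX1 bin lay in an intron of Rab8a (6 RUNX1, 79 FLI1 and 6 input reads, 5.47-fold) and was also called for FLI1.
Tpm4 upstream, chr8:74657499-74657571, minus strand: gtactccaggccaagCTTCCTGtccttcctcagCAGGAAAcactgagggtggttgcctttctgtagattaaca
Tpm4 intron, chr8:74660698-74660773, plus strand: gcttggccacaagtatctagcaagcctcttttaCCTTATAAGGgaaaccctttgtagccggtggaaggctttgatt
The upstream stretch of Tpm4 carries a pair of ETS matches, on opposite strands, each 9 bp from the summit. The intronic stretch carries the CArG box 8 bp from the summit of a site at 1870 bp, where the top bin held 136 FLI1, 5 RUNX1 and 8 input reads (5.87-fold).

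Tpm1 had the lowest folds of the 10 genes at the TSS of its record and yet an occupied start site inside the gene. It lies at chr9:66870397-66897213 on the minus strand and is known for separate promoters that give long and short tropomyosins. The TSS window held 129 FLI1, 4 RUNX1 and 60 input reads, a fold of 0.743 (0.543 to 1.03) for FLI1 and 0.365 for RUNX1. Against the genome-wide mean alone the FLI1 fold of Tpm1 was 1.31, no longer the lowest, beside 1.3 at Myl9. Within 500 bp of an annotated coding start 5697 bp downstream there were 223 FLI1, 13 RUNX1 and 11 input reads, a fold of 7 for FLI1 and 6.47 for RUNX1, whereas within 500 bp of the coding start at 263 bp there were 33, 0 and 18 reads. The FLI1 site there had its summit at 5578 bp, and its top bin held 131 FLI1, 8 RUNX1 and 6 input reads (7.54-fold for FLI1), with RUNX1 called in the same bin at 7.3-fold. The strongest FLI1 site of the territory by fold, a run of 2 bins, lay past the end of the gene. Its summit lay 35715 bp from the TSS, with no other start site within 2 kb. The top bin by fold held 125 FLI1, 1 RUNX1 and 1 input reads (9-fold). The summit lay in the other bin, which held 169 FLI1, 1 RUNX1 and 10 input reads (5.84-fold). In all, 4 of 167 bins were called for FLI1 and 1 for RUNX1.
Tpm1 inner start, chr9:66891645-66891673, plus strand: taagaagcaggCCGGAAGtcacggctcct
Tpm1 downstream, chr9:66861464-66861536, minus strand: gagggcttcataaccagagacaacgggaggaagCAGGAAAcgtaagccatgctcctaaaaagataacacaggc
These stretches of Tpm1 are shown for their ETS matches, 24 bp and 2 bp from the summits of the inner and the downstream site.

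**Figure D3:**
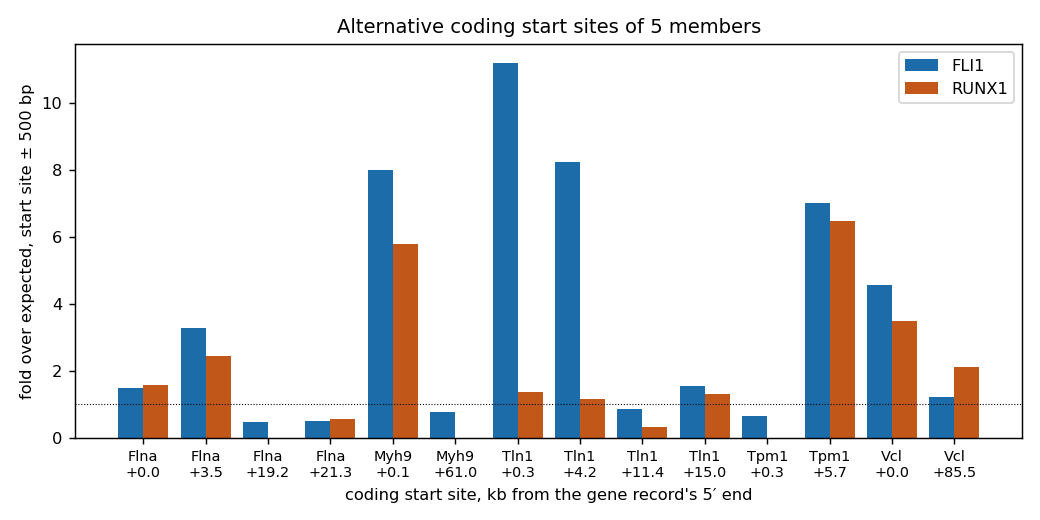
FLI1 and RUNX1 fold over expected within 500 bp of each annotated coding start site (start sites under 500 bp apart counted once) of the 5 genes with more than 1, ordered by distance from the 5′ end of the gene record, with a dotted line at 1. In Tpm1 the start at 5697 bp had 7-fold FLI1 and 6.47-fold RUNX1 and the start at 263 bp 0.633-fold and 0, and in Tln1 the starts at 269 and 4231 bp had 11.2-fold and 8.24-fold FLI1.

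Was encodes the Wiskott-Aldrich syndrome protein, which turns on the Arp2/3 complex that branches actin filaments, and its loss in humans gives small platelets. It lies at chrX:7658579-7667624 on the minus strand. Around its TSS lay 214 FLI1, 5 RUNX1 and 32 input reads, a fold of 2.17 (1.89 to 2.49) for FLI1 and 0.805 for RUNX1. The FLI1 interval holds the error of the ChIP count alone and leaves out that of input. With plus-strand reads alone the FLI1 fold was 1.99, just short of a call. FLI1 was concentrated at the start itself, in 1 bin with its summit 7 bp upstream of the TSS that held 107 FLI1, 1 RUNX1 and 5 input reads (7.39-fold). The other called FLI1 bins lay 12046 bp (47, 1 and 2 reads, 4.78-fold) and 6549 bp upstream (35, 0 and 2 reads, 3.56-fold). A RUNX1 bin in an intron at 6169 bp held 7 RUNX1, 7 FLI1 and 2 input reads (11.3-fold), fewer FLI1 reads than the genome-wide mean. All libraries covered the X chromosome at 55.3 to 63% of their genome-wide mean, so that the genome-wide mean, which set the expectation at the Was TSS, is high for this chromosome. At the Flna TSS the scaled input set it. With the mean of the own chromosome in its place, the counts of genes called stayed at 6 for FLI1 and 3 for RUNX1.
Was start, chrX:7667623-7667651, plus strand: gagcaggggaaCAGGAAGtacaataaacc
Was upstream, chrX:7679634-7679706, minus strand: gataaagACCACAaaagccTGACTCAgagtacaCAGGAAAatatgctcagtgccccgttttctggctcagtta
The ETS match of the start stretch of Was lies 6 bp from the summit. The upstream stretch is shown because a RUNX match, an NF-E2/AP-1 match and an ETS match, all in capitals, stand there in that order.

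**Figure D4:**
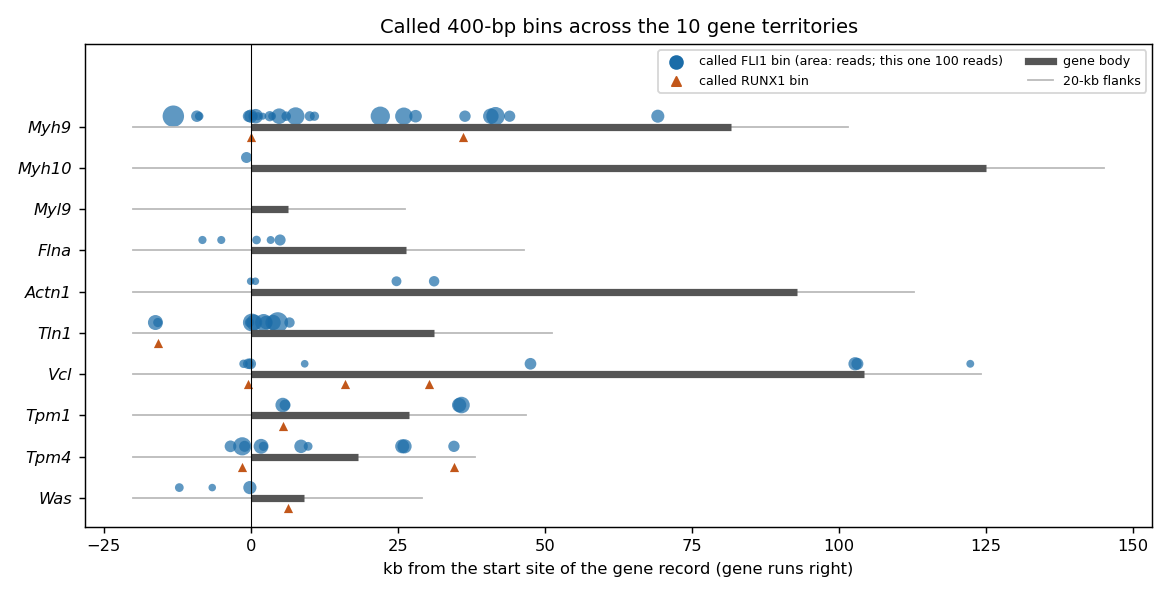
Called FLI1 bins (circles, area in proportion to reads) and called RUNX1 bins (triangles) along the territories of the 10 genes, by kb from the TSS of the gene record, with a thick line for the gene body. Myh9 has 24 called FLI1 bins (7.89% of its bins), spread over the gene body and, for 3 of them, the upstream flank. Tpm4 and Tln1 have 10 each (6.85% and 5.62%), Myh10, a longer gene, has 1 and Myl9 0.

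Over the 10 territories, called FLI1 bins made up 19% of the bins within 2 kb of the own TSS (19 of 100), 2.71% of those in the rest of the gene body (34 of 1253), 2.22% in the upstream flank and 1.2% in the downstream flank. Over all protein-coding genes these shares were 6.12%, 0.431%, 0.986% and 1.15%. As counted, the share in gene bodies was higher in the members than over all genes. The share in downstream flanks was level, but it rests on 6 of 500 bins, and no difference was tested. Of the 34 bins in gene bodies, 16 were of Myh9.

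RUNX1 reads gathered in the bins called for FLI1. The 69 called FLI1 bins held 157 RUNX1 reads, 2.28 per bin (1.93 to 2.66), and the other 2234 bins 0.864 per bin (0.826 to 0.904), with 4.45 and 4.58 input reads per bin. Scaled to depth, RUNX1 over input was 2.8 (2.29 to 3.4) in the called bins and 1.03 (0.984 to 1.08) in the others. The called bins were chosen on a ratio with input below the line, and how far that choice shaped the ratio was not tested. When bins were called against the genome-wide mean alone, which gave a larger set of 141 bins, the ratio was 1.94. The same ratios over all gene territories were 2.93 and 0.945, the first of which lies inside the interval of the members, and without Myh9 the members gave 3.15. Of the 10 called RUNX1 bins, 6 were also called for FLI1, 60% (26.2 to 87.8%), beside 36.6% of the 3572 called over all gene territories.

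The sequence under the called FLI1 bins was compared with that of other bins. An ETS match was found in 62.3% of the 69 bins (interval 49.8 to 73.7%), beside 63.4% of all called FLI1 bins in gene territories and 25.8% of uncalled ones. Of the 52 FLI1 sites, 28 had an ETS match within 50 bp of the summit, 53.8% (39.5 to 67.8%), beside 55.7% of the 20269 FLI1 sites of all gene territories and 7.33% of the centres of uncalled bins. A RUNX match (TGTGGT or TGCGGT) stood in 40.6%, beside 37.4% and 29.2%, and a GATA match (AGATAA or TGATAA) in 21.7%, beside 29.4% and 39.3%. These shares of the members lay within counting error of those of all called bins.

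Other motifs were more frequent in the called bins of the members than in called bins at large. The NF-E2/AP-1 match (TGAGTCA or TGACTCA) stood in 16 of 69 bins, 23.2% (13.9 to 34.9%), beside 9.29% of all called bins and 6.5% of uncalled bins. The CArG box stood in 10 of 69, 14.5% (7.17 to 25%), beside 2.02% of all called bins, 2.26% of uncalled bins and 2.69% of the members' own uncalled bins. Those 10 bins belonged to Myh9 (5), Flna (2), Tln1, Vcl and Tpm4 (1 each). Without Myh9 the shares were 22.2% (11.2 to 37.1%) and 11.1% (3.71 to 24.1%). The TSS windows of 6 of the 10 genes, Myh9, Myl9, Flna, Actn1, Vcl and Tpm4, held a CArG box, as did those of 18.9% of all genes. Neighbouring bins and bins of 1 gene are not independent, genes and motifs were not picked blind to these data, no test was made, and a match is no evidence of binding by NF-E2 or SRF, which were not measured in these libraries.

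**Figure D5:**
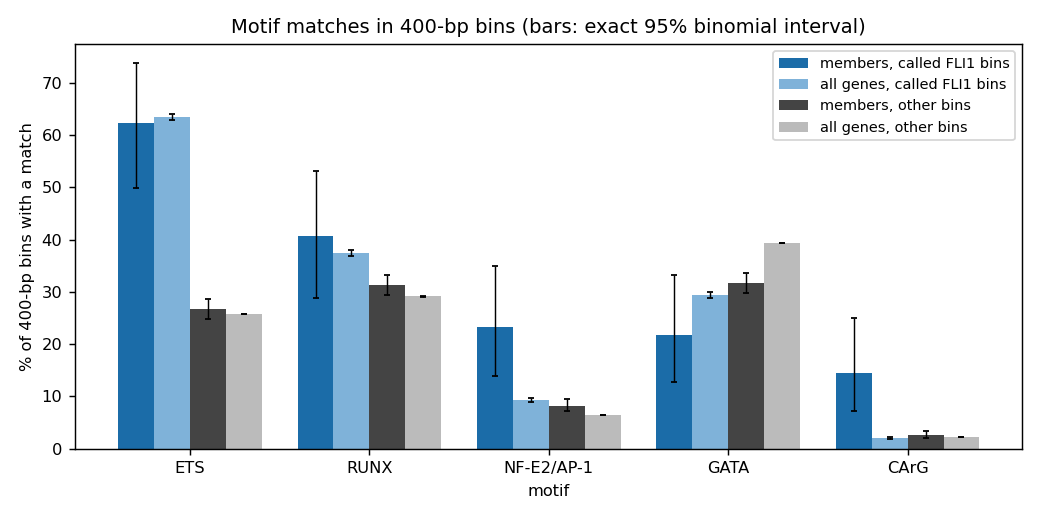
Percent of 400-bp bins that hold at least 1 match to each of 5 motifs, for called FLI1 bins and other bins of the 10 genes and of all protein-coding genes, with exact 95% binomial intervals. The members' called bins are level with all called bins for ETS, RUNX and GATA, and above them for NF-E2/AP-1 (23.2% and 9.29%) and CArG (14.5% and 2.02%).

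A list of 47 further actin cytoskeleton genes was set beside the 10. FLI1 reached 2-fold at the TSS of 29 of them (61.7%) with a median of 2.49, and RUNX1 its threshold at 20 with a median of 1.7. A called RUNX1 bin lay within 2 kb of the TSS in 21.3% of the list and in the territory in 46.8%, beside 30% and 60% of the members, so that the RUNX1 counts at the TSS and by bins do not rank the groups the same way. Actins (2 of 2), myosin partners and regulators (7 of 9), polymerisation and turnover genes (11 of 16), spectrin and membrane linkers (3 of 4) and adhesion genes (4 of 6) had most FLI1 calls, while of the SRF axis (Srf, Mkl1 and Mkl2) 1 of 3 was called, Srf, with a median of 1.98. Of 7 genes listed as paralogs of the members, 1 was called, Wasl (14.3%, beside 22% of all genes), and their median fold was 0.837. A called FLI1 bin lay in the territory of 6 of these 7 (85.7%, beside 62.8% of all genes). Other myosin II chains, such as Myl12a, Myl12b and Myh14, were counted among the myosin partners instead. The highest FLI1 folds were at Cfl1 (cofilin 1, which severs filaments), with 792 FLI1, 25 RUNX1 and 34 input reads and a fold of 8.05, Pfn1 (profilin 1, which feeds actin monomers to growing ends), with 768, 25 and 32 reads and 7.8-fold, and Fermt3 (kindlin 3, an integrin activator), with 1104, 24 and 58 reads and 6.58-fold. The lowest were at Myh14 (myosin IIC heavy chain), with 106 FLI1, 4 RUNX1 and 53 input reads and a fold of 0.691, Mkl2, an SRF cofactor (126, 10 and 60 reads, 0.725-fold), and Tpm3 (112, 7 and 53 reads, 0.73-fold). Of other myosin II light chains, Myl12a (505 FLI1, 21 RUNX1 and 26 input reads, named after its values were seen) had a FLI1 fold of 5.13, level with Myh9, Myl12b 3.09 and Myl6 2.3. Among the 3 nonmuscle myosin II heavy chains, FLI1 at the TSS thus ran from 5.09-fold at Myh9 through 1.78-fold at Myh10 to 0.691-fold at Myh14. The CArG share in the called FLI1 bins of this list was 5.5% (3.18 to 8.78%) and the NF-E2/AP-1 share 8.93% (5.92 to 12.8%). The territories of the list and of the members share 81 bins, since some of these genes are neighbours.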

How the data were processed

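Bowtie alignments to mm9 were filtered by the authors for unique mapping and deposited as 1 file of read positions per library, with no counts, peaks or normalized unit. The notes of the submitters also name SICER 1.1 and MACS 1.4, and no peak file was used here. ChIP reads are 50 bp and input reads 34 bp long. ChIP files hold each position once. In the input 3.24% of reads repeat a position and were reduced to 1. The methods and the labels differ on fetal age, library kit, DNA amount and whether the input was sonicated or digested with micrococcal nuclease, and an input made differently from the ChIP DNA can shift folds at open chromatin.

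Here reads were moved 75 bp in the 3′ direction, to the middle of the 150-bp fragment in the methods, and counted per window with Python 3.11.15, numpy 2.4.6 and scipy 1.17.1, scaled to total nuclear reads (RPM). The bin expectation was the highest of scaled input in the bin, scaled input over 10 kb around it, and the genome-wide mean. Genes are GENCODE M1 on NCBIM37 (mm9), to which 946 of 1000 FLI1 and 967 of 1000 RUNX1 reads checked matched with at most 2 mismatches. Counts have exact Poisson intervals, shares exact Clopper-Pearson intervals and ratios exact conditional binomial intervals. Where the genome-wide mean set the expectation of a fold, its interval is the Poisson interval of the ChIP count alone. Repeated amplification and paired ends are not covered. The counting was tested on simulated reads over an even background. Recovery was required there only of planted sites stronger than most sites called here, so that it does not vouch for weaker ones. The 10 genes, the list and the motifs were chosen with earlier results of these data known. Named are all 10 genes, up to 3 FLI1 sites each with the highest fold, every called RUNX1 bin, neighbours with a TSS within 2 kb of a called bin, and the 3 highest and 3 lowest FLI1 folds of the list; further sites were named for their sequence after values were seen. One further gene of the MK marker list is not reported here.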

Additional observations from a re-analysis of the deposited data

How the results depend on the processing

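Of the counts and ratios recomputed under other settings, 60 stayed within 1.5 times of the value given (the RUNX1 ratio within its interval) and 13 did not. The number of genes with a 2-fold FLI1 TSS fell from 6 to 3 at a threshold of 3-fold, and the 69 called FLI1 bins became 135 at 2-fold, 37 at 5-fold, 141 without input and 32 when as many FLI1 as RUNX1 reads were drawn and the RUNX1 rule was applied. RUNX1 results rested on few reads: with plus-strand reads alone, which lowers the depth at the same minimum, 1 TSS, 1 bin and 1 gene remained of 3, 10 and 6. The 10 RUNX1 bins were 6 with reads not moved, 20 at a minimum of 4 reads and 2 at 8 reads, which left 2 genes with a bin. RUNX1 over input in called FLI1 bins fell from 2.8 to 1.94 without input. Bins within 2 kb of another gene's TSS were left out, unless a TSS of the 10 genes also lay within 2 kb. This left 62 FLI1 and 9 RUNX1 bins, with the site shared by Tln1 and Creb3 still among them. The own-chromosome mean was added after the data were seen and moved no count by over 1.5 times. Of single genes, the FLI1 fold of Tpm4 ranged from 1.54 (1-kb window) to 6.01, that of Tln1 from 3.31 to 6.3, that of Myh9 from 5.07 to 7.86, that of Myh10 from 1.49 to 2.31 and that of Tpm1 from 0.702 to 1.31. Calls at the TSS changed for RUNX1 at Myh9, Myh10, Tpm4 and Vcl and for FLI1 at Myh10, Tpm4, Vcl and Was under at least 1 setting at the thresholds used. With the grid moved by 200 bp, the called RUNX1 bins of Tpm1 rose from 1 to 3 and those of Vcl fell from 3 to 1. With 1 library per antibody, spread between cultures is unknown, and absence of a RUNX1 call at this depth says little.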
